A study of Homo sapiens with 18 samples.

Results

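HLA-B, HLA-C, B2M, TAP1, TAP2, TAPBP, PSMB8, PSMB9 and NLRC5 are genes of MHC class I antigen presentation, the route by which a cell shows fragments of its own proteins to cytotoxic T cells. These 9 genes were chosen by symbol, as the rows of the count table that carry their Ensembl identifiers on the primary assembly. They are 9 of the 63677 genes in the table and 9 of the 15576 genes that passed the filter on low counts and were tested. RNA-seq counts were available for 18 libraries made from NCI-H1299, a human non-small cell lung cancer line. There were 3 libraries in each of 6 groups: cells given a plasmid for TBX2, TBX3, TBX4 or TBX5, T-box transcription factors of the TBX2 subfamily, cells given the empty vector (EV), and cells labelled Ctl, whose treatment the labels do not name. All were cells of this 1 line. The plasmids were given by transient transfection, so each TBX library also holds RNA of cells that took up no plasmid. Whether the Ctl cells were transfected is not known from the labels. The TBX5 plasmid carried the mouse gene and the other 3 the human gene. The sources do not say that libraries of a group came from separate cultures, and p-values then measure the spread between these libraries, which may be technical. The library here called TBX4 replicate c was put in that group by the number in its title, although the title ends in TBX5.

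In this route the proteasome cuts proteins into peptides, and PSMB8 and PSMB9 are 2 of the catalytic subunits of its immune form. TAP1 and TAP2 form the transporter that carries peptides into the endoplasmic reticulum, where TAPBP (tapasin) bridges the transporter and the empty class I molecule and helps to choose the peptide. HLA-B and HLA-C are class I heavy chains, B2M (beta-2-microglobulin) is their shared light chain, and NLRC5 is a transactivator of class I promoters. Many carcinomas hold these genes at low level, and interferon is known to raise them.

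On GRCh37, the build of the counts, the annotation placed 7 of the 9 genes in the MHC on chromosome 6. HLA-C (ENSG00000204525) lay at chr6:31236526-31239907 and HLA-B (ENSG00000234745) at chr6:31321649-31334844, both on the minus strand. TAP2 (ENSG00000204267, chr6:32789610-32806516), PSMB8 (ENSG00000204264, chr6:32808494-32812456) and TAP1 (ENSG00000168394, chr6:32812986-32821593), all on the minus strand, sat side by side with PSMB9 (ENSG00000240065, chr6:32811913-32827628) on the plus strand. TAPBP (ENSG00000231925) lay at chr6:33267471-33282061 on the minus strand, B2M (ENSG00000166710) at chr15:45003556-45011049 on the plus strand and NLRC5 (ENSG00000140853) at chr16:57023397-57117443 on the plus strand. Exons of other annotated genes covered 45.3% of the exon bases of HLA-B, 19.5% of TAP2, 17.3% of PSMB8, 14.2% of TAP1 and 5.21% of PSMB9. The counting was not stated to use strand, so reads in these stretches, among them those shared by PSMB8, TAP1 or PSMB9 with the antisense gene PSMB8-AS1, could not be told apart. HLA-B and HLA-C are also near copies of each other and of other class I genes, and reads that matched several of them equally are not in the counts.

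The 6 members that rose with TBX2 (below) are shown by the 250 bases before their RefSeq start site, written 5′ to 3′ on the strand of the gene. The RefSeq table is on GRCh38.p14 and held 8 of the 9 genes, all but NLRC5, and the coordinates given are those of the exact match of each window in GRCh37. Capitals mark matches, on either strand, to the core of the interferon regulatory factor element (GAAANNGAA), the CCAAT box (CCAAT) and the kappaB core (GGGNATTCC), where N is any base. Adjacent IRF cores overlap in B2M, TAP1 and TAPBP and run on as a single stretch of capitals.
HLA-B, chr6:31324957-31325206: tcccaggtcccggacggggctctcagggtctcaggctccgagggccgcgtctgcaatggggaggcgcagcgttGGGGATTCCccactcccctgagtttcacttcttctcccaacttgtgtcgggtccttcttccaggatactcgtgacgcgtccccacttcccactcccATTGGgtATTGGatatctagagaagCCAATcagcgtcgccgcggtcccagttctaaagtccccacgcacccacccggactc
HLA-C, chr6:31239870-31240119: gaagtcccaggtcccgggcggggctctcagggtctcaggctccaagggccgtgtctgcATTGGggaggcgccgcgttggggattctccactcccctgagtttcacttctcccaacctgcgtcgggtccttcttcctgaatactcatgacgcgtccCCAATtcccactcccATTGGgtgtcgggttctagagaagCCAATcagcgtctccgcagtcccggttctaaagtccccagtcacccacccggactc
B2M, chr15:45003465-45003714: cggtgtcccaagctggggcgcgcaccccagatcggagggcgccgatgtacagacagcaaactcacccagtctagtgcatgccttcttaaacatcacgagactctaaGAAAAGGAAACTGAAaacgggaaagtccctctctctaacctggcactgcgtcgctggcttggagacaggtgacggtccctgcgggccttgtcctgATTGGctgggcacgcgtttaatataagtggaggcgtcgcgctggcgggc
TAP1, chr6:32821482-32821731: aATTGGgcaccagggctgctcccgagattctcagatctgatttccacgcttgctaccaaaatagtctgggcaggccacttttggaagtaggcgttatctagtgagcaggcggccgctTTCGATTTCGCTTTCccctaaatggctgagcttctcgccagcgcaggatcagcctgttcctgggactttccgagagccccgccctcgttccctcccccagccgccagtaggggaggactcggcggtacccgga
TAP2, chr6:32806517-32806766: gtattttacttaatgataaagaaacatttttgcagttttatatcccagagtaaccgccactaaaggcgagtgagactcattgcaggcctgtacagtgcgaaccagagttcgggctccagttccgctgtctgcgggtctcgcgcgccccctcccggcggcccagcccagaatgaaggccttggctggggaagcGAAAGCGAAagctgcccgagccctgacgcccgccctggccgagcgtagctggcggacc
TAPBP, chr6:33281856-33282105: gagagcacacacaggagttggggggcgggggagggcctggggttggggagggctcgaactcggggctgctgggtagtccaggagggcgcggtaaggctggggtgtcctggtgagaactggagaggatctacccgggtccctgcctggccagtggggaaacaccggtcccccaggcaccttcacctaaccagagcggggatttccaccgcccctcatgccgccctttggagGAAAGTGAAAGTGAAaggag

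The IRF core was found in the windows of 4 of the 8 genes, B2M, TAP1, TAP2 and TAPBP, and in 7.06% of all 27305 promoter windows of that length. The CCAAT box was found in 5 of the 8, HLA-B, HLA-C, B2M, TAP1 and PSMB9, and in 33.0% of all windows. The kappaB core was found in HLA-B and in 0.685% of all windows. Neither the GAS element (TTCNNNGAA, 6.78% of all windows) nor the core of the T-box element (GGTGTGA, 2.72%) was found in any of the 8. The windows of HLA-B and HLA-C were alike, with 226 of 246 aligned bases (91.9%) identical. A match of these letters is a description of the sequence and was not tested as a binding site. Variants of an element, or copies outside the window, were not searched, so a window without a match does not show that the gene lacks it.

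The libraries held 7365221 to 11743179 counts. The row ENSG00000266658, which has no symbol in the annotation, took 10.7% to 53.5% of each library's counts, so values are given as counts per 1000000 (CPM) on TMM-scaled library sizes, a scaling that is little moved by such a row. A count of 3, taken as the floor of detection, equalled 0.255 to 0.407 CPM before TMM scaling, a limit that covers counting error only. Each plasmid's own gene was checked first. TBX2 had at least 27704 counts in every TBX2 library and at most 56 in the controls, TBX3 had at least 135416 against at most 34, and TBX4 had at least 85197, TBX4 replicate c included, against at most 1. The human TBX5 row had 1161 to 1302 counts in the TBX5 libraries and 0 in all 6 controls. TBX4 also had 6 to 19 counts in the libraries of the other TBX plasmids. TBX3 rose against the 6 controls with the TBX4 and TBX5 plasmids too. Its log2 fold changes were 1.55 and 2.22 when scaled by DESeq2 size factors, and 1.81 and 1.94 with library totals. The cause was not tested. The keratins KRT8 and KRT18 and the filament gene VIM were high, as in a carcinoma line of this kind, while KRT19 and EPCAM did not pass the filter. Summed over the lists, leukocyte markers had 4 to 23 counts per library, endothelial markers 0 to 7 and fibroblast markers 3 to 11.

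All 9 genes were detected in all libraries, from 6 counts (NLRC5) upward. Per kilobase of exon, in CPM per kb as mean ± SD over the 6 controls, the light chain B2M was highest at 34.1 ± 2.50, followed by the heavy chains HLA-B at 13.5 ± 1.10 and HLA-C at 11.2 ± 0.960, and by tapasin TAPBP at 8.97 ± 0.619. The transporter genes TAP1 (3.83 ± 0.490) and TAP2 (2.66 ± 0.190) and the proteasome gene PSMB8 (2.19 ± 0.206) came next. PSMB9 (1.24 ± 0.430) and NLRC5 (0.106 ± 0.0328) were lowest. The order was the same in each of the 6 groups, and the control means of all neighbours in it lay further apart than the sum of their SDs. Lengths are those of the gene models used here, and that of HLA-B includes exons beyond the RefSeq start, which lowers its level per kb. Reads that matched several places are not in the counts, and alternate MHC haplotype rows were not added. Reads in exons shared with other genes, as over 45.3% of the exon bases of HLA-B, would be missing too. Each of these may lower members in the MHC relative to B2M and NLRC5, so the order is one of counted reads.

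**Figure D1:**
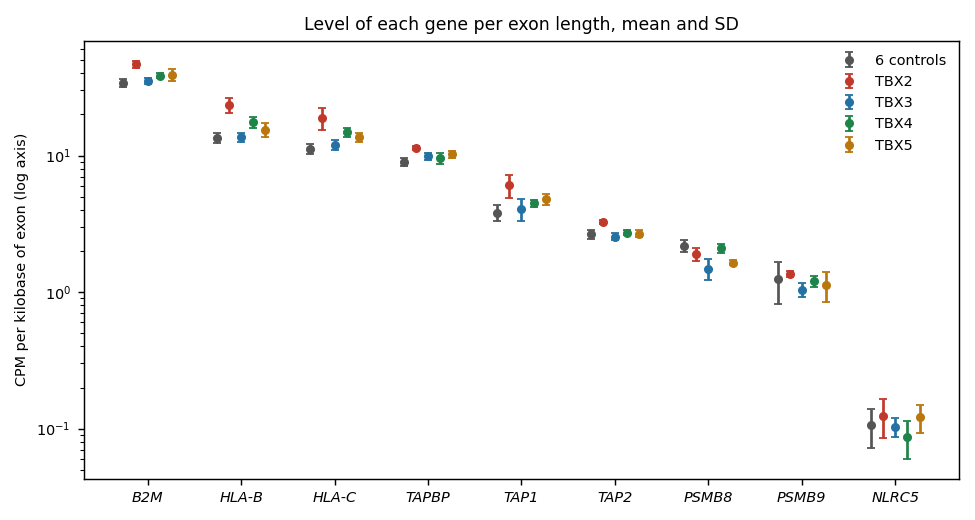
Level of each gene per exon length, in CPM per kilobase of exon on a log axis, as mean and SD (points and bars) of the 6 controls and of the 3 libraries of each TBX. B2M stands highest, at 34.1 in the controls, and NLRC5 lowest, at 0.106, in each of the groups drawn.

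The heavy and light chains, the transporter and tapasin rose with TBX2, while the immunoproteasome subunits and NLRC5 did not pass the test. Against the 6 controls, 6 of the 9 genes rose with TBX2 and none fell: HLA-B, HLA-C, B2M, TAP1, TAP2 and TAPBP, by 1.23-fold (TAP2) to 1.73-fold (HLA-B). Of all tested genes, 17.0% rose and 15.6% fell in this comparison at the same threshold, an edgeR adjusted p under 0.1. The median log2 fold change was 0.35 over the 9 genes and -0.0013 over all 15576. In the same 6 genes every TBX2 library lay above every control library, which held for 12.9% of all tested genes in this direction. With library totals as the scaling, 3 of these 6 calls remained (HLA-B, HLA-C and TAP1), at nearly the same fold changes for all 6, and leaving out any 1 of the 9 libraries changed none of the 6. The summed level of the carcinoma line markers also moved with TBX2, from 974 to 1071 CPM in the controls to 766 to 819 CPM, with KRT8, KRT18 and VIM at log2 fold changes of -0.79, -0.56 and -0.31, and its part in these results was not tested. In bulk RNA, more cells with a gene and more RNA per cell cannot be told apart.

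**Figure D2:**
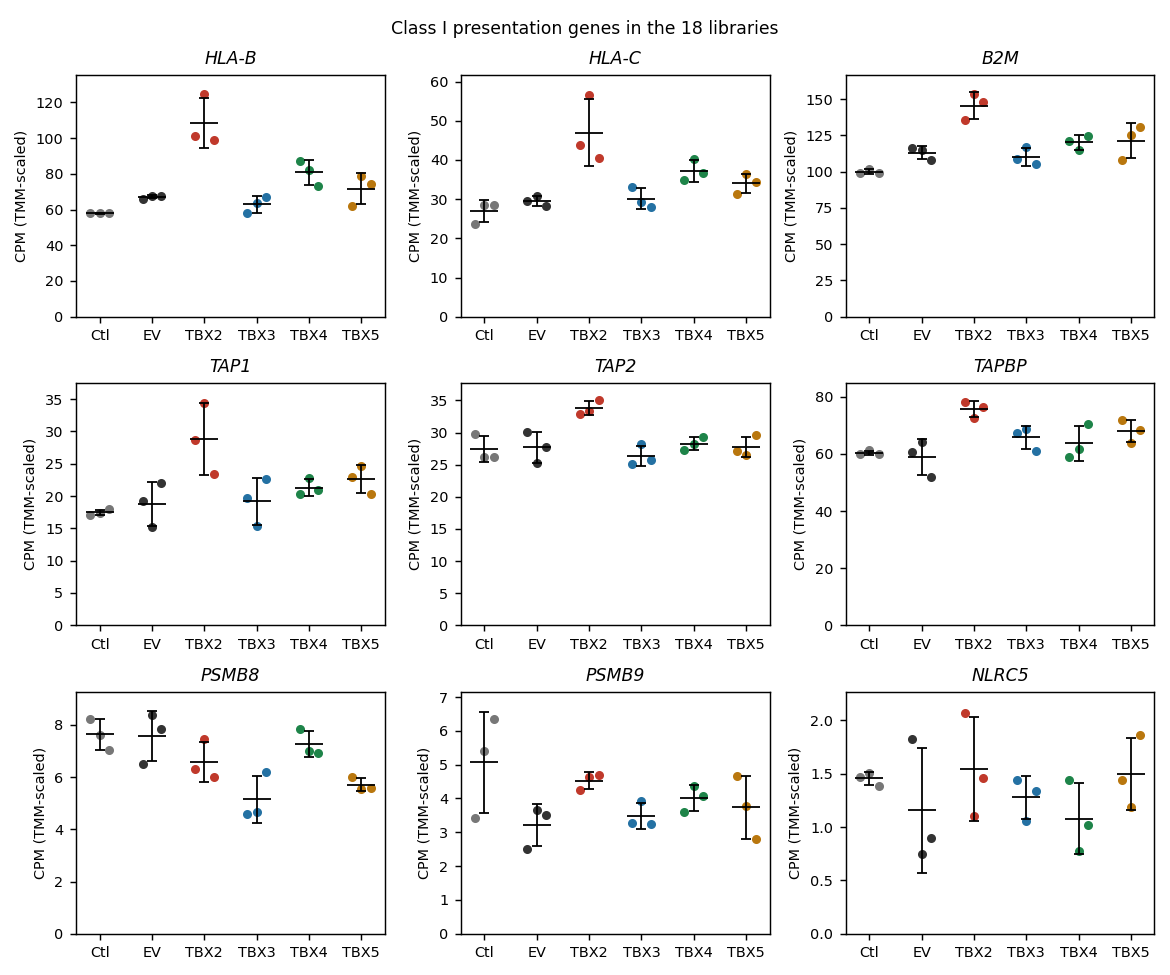
CPM on TMM-scaled library sizes of each of the 9 genes (panels) in the 3 libraries of each group (points), with the mean and SD (bars), on axes that start at 0. HLA-B, HLA-C, B2M, TAP1, TAP2 and TAPBP are above all controls in the 3 TBX2 libraries, and PSMB8 is below all controls in the TBX3 and TBX5 libraries.

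HLA-B, a class I heavy chain, showed the largest log2 fold change of the 9 genes with TBX2. Its level was 57.8, 62.2 and 67.8 CPM (lowest, median and highest) in the 6 controls, and 101, 125 and 99.0 CPM in TBX2 replicates a, b and c. All TBX2 libraries were higher than all the others, in every group. The other TBX libraries held 57.9, 63.8 and 66.9 CPM with TBX3, 87.1, 82.4 and 73.1 CPM with TBX4, and 62.0, 78.8 and 74.2 CPM with TBX5. The TBX3 libraries lay within the range of the controls, the TBX4 libraries above it, and the TBX5 libraries overlapped it. The log2 fold change against the 6 controls was 0.79 ± 0.08 (SE) with TBX2 (adjusted p = 5.32e-08), 0.01 ± 0.07 with TBX3 (adjusted p = 0.955), 0.36 ± 0.07 with TBX4 (adjusted p = 0.000752) and 0.18 ± 0.08 with TBX5 (adjusted p = 0.180). With TBX5 replicate a left out, the last value became 0.29 (adjusted p = 0.0248).

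HLA-C, the other heavy chain, moved in the same order of groups. It held 23.6, 28.5 and 30.7 CPM (lowest, median and highest) in the controls and 43.8, 56.6 and 40.6 CPM in the TBX2 libraries. With TBX4 it held 34.8, 40.3 and 36.6 CPM, and with TBX5 31.4, 36.3 and 34.4 CPM, so that all the libraries of these 3 groups were above all controls. With TBX3 it held 33.2, 29.3 and 27.9 CPM and overlapped the controls. The log2 fold change was 0.75 ± 0.09 (SE) with TBX2 (adjusted p = 1.61e-06), 0.40 ± 0.07 with TBX4 (adjusted p = 0.000736), and 0.09 ± 0.08 with TBX3 (adjusted p = 0.570). With TBX5 it was 0.26 ± 0.08 (adjusted p = 0.0596), a rise on TMM scaling that became -0.06 with library totals and was no longer called without TBX5 replicate b (0.22, adjusted p = 0.213) or TBX5 replicate c (0.25, adjusted p = 0.169). Within each library, where no scaling enters, the ratio of HLA-B to HLA-C counts was 2.23 ± 0.180 (SD, n = 6) in the controls and 2.32 ± 0.121 (SD, n = 3) with TBX2, ranges that overlapped.

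B2M, the light chain without which class I molecules do not reach the surface, rose less than the heavy chains. The controls held 98.8, 105 and 116 CPM (lowest, median and highest) and the TBX2 libraries 136, 153 and 148 CPM. It held 109, 117 and 105 CPM with TBX3, 121, 115 and 125 CPM with TBX4, and 108, 126 and 131 CPM with TBX5. Only the TBX2 libraries were all above the controls. The log2 fold change was 0.45 ± 0.07 (SE) with TBX2 (adjusted p = 1.96e-05), 0.05 ± 0.06 with TBX3 (adjusted p = 0.732), 0.17 ± 0.06 with TBX4 (adjusted p = 0.0711) and 0.18 ± 0.07 with TBX5 (adjusted p = 0.125). The TBX4 call was lost without Ctl replicate a, b or c, TBX4 replicate a or TBX4 replicate c, at adjusted p = 0.125 to 0.230, and the TBX5 value was called without EV replicate b (0.21, adjusted p = 0.0977) or TBX5 replicate a (0.27, adjusted p = 0.0196). The ratio of HLA-B to B2M counts was 0.568 to 0.626 in the controls and 0.669 to 0.812 in the TBX2 libraries, which did not overlap.

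TAP1, a chain of the peptide transporter, held 15.1, 17.7 and 22.0 CPM (lowest, median and highest) in the controls and 28.7, 34.4 and 23.4 CPM in the TBX2 libraries. Its log2 fold change with TBX2 was 0.68 ± 0.11 (SE; adjusted p = 6.61e-05). It held 19.7, 15.4 and 22.6 CPM with TBX3 and 20.3, 22.7 and 20.9 CPM with TBX4, where the changes of 0.11 ± 0.11 (adjusted p = 0.606) and 0.22 ± 0.09 (adjusted p = 0.148) did not pass. Without EV replicate c the TBX4 change of TAP1 passed, at 0.30 (adjusted p = 0.0219). With TBX5 it held 23.0, 24.6 and 20.3 CPM and rose by 0.30 ± 0.11 (adjusted p = 0.0819) on TMM scaling, a value that became -0.01 with library totals. That call was lost, at adjusted p = 0.112 to 0.255, without Ctl replicate a, b or c, EV replicate b, TBX5 replicate a or TBX5 replicate b.

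TAP2, the partner chain, rose with TBX2 by a smaller step. The controls held 25.3, 27.0 and 30.0 CPM (lowest, median and highest), and the TBX2 libraries 33.0, 33.4 and 35.1 CPM, all above them. The log2 fold change was 0.29 ± 0.07 (SE; adjusted p = 0.00496). The 9 libraries of TBX3, TBX4 and TBX5 lay between 25.2 and 29.6 CPM, and their log2 fold changes were -0.07 ± 0.08, 0.03 ± 0.07 and 0.01 ± 0.08 (adjusted p = 0.647, 0.839 and 0.964).

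TAPBP held 51.8, 60.3 and 64.1 CPM (lowest, median and highest) in the controls and 78.2, 72.5 and 76.6 CPM in the TBX2 libraries, a log2 fold change of 0.35 ± 0.07 (SE; adjusted p = 0.00045). With TBX3 it held 67.5, 68.8 and 61.1 CPM (0.14 ± 0.07, adjusted p = 0.206), and with TBX4 58.9, 61.7 and 70.5 CPM (0.09 ± 0.07, adjusted p = 0.447). Both groups overlapped the controls. With TBX5 it held 71.8, 63.9 and 68.3 CPM and rose by 0.20 ± 0.07 (adjusted p = 0.0866) on TMM scaling, a value that became -0.10 with library totals. This TAPBP call was lost, at adjusted p = 0.106 to 0.277, without Ctl replicate a or c, EV replicate a or c, or TBX5 replicate a or c.

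PSMB8, an immunoproteasome subunit, fell where it changed. It held 6.51, 7.74 and 8.37 CPM (lowest, median and highest) in the controls. With TBX3 it held 4.59, 4.68 and 6.19 CPM, all below the controls, and fell by 0.51 ± 0.14 on the log2 scale (SE; adjusted p = 0.0183), the single member called with TBX3. The carcinoma line markers were lower there too, at 823 to 865 CPM, and their part in this result was not tested. With TBX5 PSMB8 held 5.99, 5.56 and 5.58 CPM, also all below, and fell by 0.41 ± 0.14 (adjusted p = 0.0818). Of all tested genes, 6.40% were called as lower with TBX3 and 6.12% with TBX5. The share of all genes with every library of the group below the controls was not counted. The TBX3 call held with each of the 9 libraries left out and was lost with library totals (-0.58, adjusted p = 0.999), while the TBX5 call was lost, at adjusted p = 0.107 to 0.210, without Ctl replicate a or b, EV replicate b or c, or any 1 of the TBX5 libraries. PSMB8 held 6.32, 7.45 and 6.01 CPM with TBX2 and 7.85, 7.01 and 6.94 CPM with TBX4, with log2 fold changes of -0.19 ± 0.13 (adjusted p = 0.304) and -0.07 ± 0.11 (adjusted p = 0.773). These libraries overlapped the controls.

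PSMB9 and NLRC5 were the lowest of the 9 genes and passed the test in no comparison with controls. PSMB9, also an immunoproteasome subunit, held 2.51, 3.58 and 6.35 CPM (lowest, median and highest) in the controls and 2.79 to 4.71 CPM in the 12 TBX libraries. Its log2 fold change with TBX2 was 0.12, with a 95% interval of -0.34 to 0.58. NLRC5 held 0.751, 1.43 and 1.83 CPM in the controls and 0.778 to 2.07 CPM in the TBX libraries, from 6 to 19 counts per library. Its log2 fold change with TBX2 was 0.26, with a 95% interval of -0.38 to 0.90, so that at this depth a rise as large as that of HLA-B could not be told from none for NLRC5, while for PSMB8 (-0.46 to 0.08) and PSMB9 the interval ended below the HLA-B value of 0.79. Against EV alone, PSMB9 had 0.47 with TBX2 (95% interval 0.05 to 0.89, adjusted p = 0.112), an interval that holds the HLA-B value, and all TBX2 libraries were above all EV libraries. The share of all genes that separate so from EV was not counted. PSMB9 had -0.63 in EV against Ctl (edgeR adjusted p = 0.334), so its EV base was low. With only genes of at least 10 counts in every library, the PSMB9 value with TBX2 against EV was called (0.48, adjusted p = 0.0806).

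**Figure D3:**
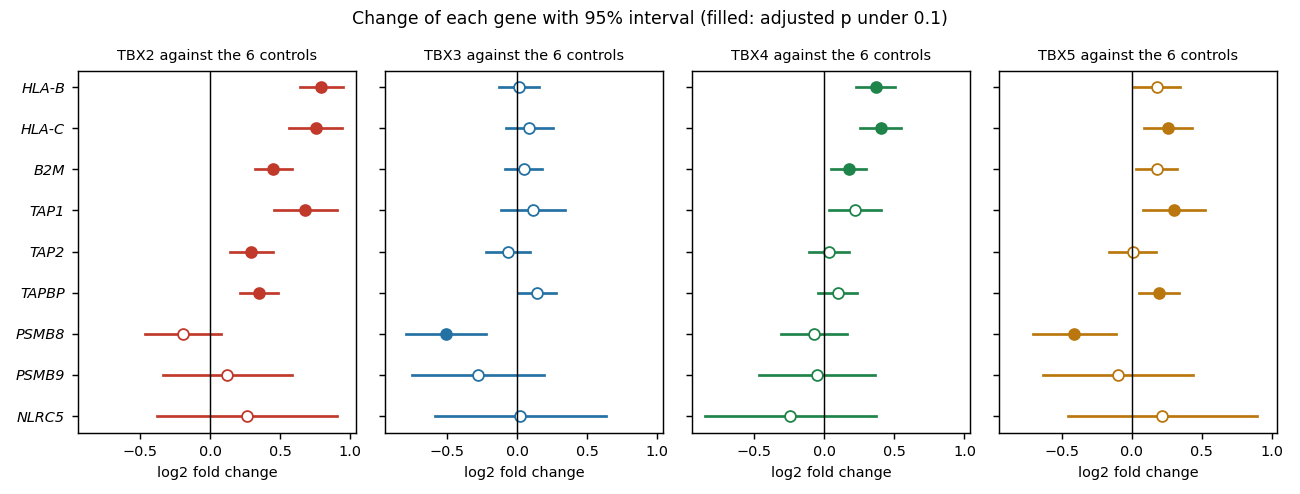
Log2 fold change of each gene against the 6 controls with its 95% interval (lines), for each TBX, filled where the edgeR adjusted p was under 0.1. The filled points are 6 above 0 (TBX2), 1 below (TBX3), 3 above (TBX4), and 3 above and 1 below (TBX5), where HLA-C, TAP1 and TAPBP turned below 0 when scaled by library totals.

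Counted over the 9 genes, 1 fell (PSMB8) and none rose with TBX3, against 8.47% of all tested genes raised and 6.40% lowered, and no member had all TBX3 libraries above the controls (8.38% of all tested genes). With TBX4, 3 rose (HLA-B, HLA-C and B2M), against 6.97% raised and 6.07% lowered in all genes, and HLA-B and HLA-C had all TBX4 libraries above the controls (6.84%). The carcinoma line markers summed to 887 to 940 CPM with TBX4, also below the controls, and their part in these results was not tested. With TBX5, 3 rose (HLA-C, TAP1 and TAPBP, the direction of which turned with library totals) and 1 fell (PSMB8), against 6.55% raised and 6.12% lowered, and HLA-C had all TBX5 libraries above the controls (7.48%). The median log2 fold change of the 9 genes was 0.02 with TBX3, 0.09 with TBX4 and 0.18 with TBX5, beside medians over all genes of -0.0021, -0.0058 and -0.0031. With library totals the median of all genes itself moved to 0.25 with TBX4 and to -0.31 with TBX5. Relative to that median the TBX5 values were 0.25 for HLA-C, 0.30 for TAP1 and 0.22 for TAPBP, and the TBX4 values 0.37 for HLA-B, 0.41 for HLA-C and 0.18 for B2M, close to those on TMM scaling. Without TBX4 replicate c, the library whose title ends in TBX5, HLA-B and HLA-C were still called (0.43, adjusted p = 0.00037, and 0.42, adjusted p = 0.00265).

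The 4 comparisons share the 6 controls, so the EV libraries were also used alone, as the cells that received a plasmid without an insert. With TBX2, the same 6 genes rose against EV, at log2 fold changes of 0.70 ± 0.08 (SE) for HLA-B, 0.70 ± 0.10 for HLA-C, 0.37 ± 0.07 for B2M, 0.62 ± 0.13 for TAP1, 0.29 ± 0.09 for TAP2 and 0.38 ± 0.08 for TAPBP, with adjusted p from 7.76e-06 to 0.0222. With library totals none of these 6 calls remained and 1.83% of all genes were called, at log2 fold changes of 0.61 for HLA-B, 0.61 for HLA-C and 0.52 for TAP1 and SEs of 0.25 to 0.26. Of all genes, 26.7% were called in that comparison. TAP2 was not called without EV replicate b (0.24, adjusted p = 0.114). With TBX4, HLA-B (0.26 ± 0.07, adjusted p = 0.0168) and HLA-C (0.34 ± 0.08, adjusted p = 0.00773) rose against EV, where 9.27% of all genes were called, and B2M did not pass (0.09 ± 0.06, adjusted p = 0.456). Neither of these 2 calls remained with library totals, where 2.13% of all genes were called, at larger values of 0.43 ± 0.19 for HLA-B and 0.50 ± 0.19 for HLA-C. With TBX3, PSMB8 fell by 0.51 ± 0.16 against EV (adjusted p = 0.0591), where 12.2% of all genes were called, and the call was lost, at adjusted p = 0.149 to 0.187, without EV replicate b or c or TBX3 replicate a or b. With TBX5 none of the 9 was called against EV by edgeR or DESeq2 (3 at an unadjusted edgeR p under 0.05, PSMB8, HLA-C and TAPBP, beside 19.9% of all genes), where 8.97% of all genes were called, and without TBX5 replicate a HLA-B, HLA-C and B2M were called (0.19, 0.27 and 0.19).

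EV was compared with Ctl to see whether the 2 kinds of control differ in these genes. None of the 9 passed the test there with edgeR or DESeq2, and 0.385% of all genes did with edgeR. At an unadjusted p under 0.05 there were 3 of the 9 (HLA-B, B2M and PSMB9) and 9.19% of all genes. HLA-B held 58.3, 58.0 and 57.8 CPM in the Ctl libraries and 66.1, 67.7 and 67.8 CPM in the EV libraries, and B2M 98.8, 102 and 99.1 CPM against 116, 115 and 108 CPM, so that in both genes every EV library was above every Ctl library, as in 7.68% of all genes. The log2 fold changes were 0.21 ± 0.06 (SE; adjusted p = 0.214) and 0.18 ± 0.06 (adjusted p = 0.315). PSMB9 held 3.43, 5.41 and 6.35 CPM in Ctl and 2.51, 3.65 and 3.51 CPM in EV (-0.63 ± 0.21, adjusted p = 0.334), with overlapping libraries.

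The TBX groups were compared directly, in 1 fit of the 18 libraries that does not use the controls as the base. TBX2 was higher than TBX3 in HLA-B (0.78 ± 0.09, log2 fold change ± SE), HLA-C (0.67 ± 0.10), B2M (0.41 ± 0.07), TAP1 (0.57 ± 0.13), TAP2 (0.36 ± 0.08) and TAPBP (0.21 ± 0.08, adjusted p = 0.0935), 6 of the 9 against 15.5% of all genes called. The first 5 of these had adjusted p from 3.48e-07 to 0.00409 and were called with each library left out, while TAPBP was not without TBX2 replicate a or c or TBX3 replicate a or c (adjusted p = 0.130 to 0.332), and PSMB8 was called as higher with TBX2 without TBX3 replicate c (0.53, adjusted p = 0.0857).

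TBX2 was also higher than TBX4 in the same 6 genes, by 0.43 ± 0.08 in HLA-B, 0.35 ± 0.10 in HLA-C, 0.28 ± 0.07 in B2M, 0.46 ± 0.12 in TAP1, 0.26 ± 0.08 in TAP2 and 0.25 ± 0.08 in TAPBP (adjusted p = 0.00138 to 0.0452), against 12.3% of all genes. HLA-B and B2M were called with each library left out. HLA-C and TAP1 were not called without TBX2 replicate b (0.18 and 0.30, adjusted p = 0.262 and 0.170), and 3 genes were called without TBX4 replicate a, where HLA-C, TAP2 and TAPBP had adjusted p = 0.116, 0.147 and 0.207. TAP2 was not called without TBX2 replicate c (0.23, adjusted p = 0.136) or TBX4 replicate b (0.26, adjusted p = 0.107), and TAPBP was not without TBX2 replicate a or c or TBX4 replicate b (adjusted p = 0.116 to 0.155).

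TBX2 was higher than TBX5 in 5 of the 9, HLA-B (0.61 ± 0.09), HLA-C (0.49 ± 0.11), B2M (0.27 ± 0.07), TAP1 (0.37 ± 0.14, adjusted p = 0.0907) and TAP2 (0.28 ± 0.09), against 12.1% of all genes, and TAPBP did not pass (0.15 ± 0.08, adjusted p = 0.306). HLA-B and HLA-C were called with each library left out, while 2 genes were called without TBX5 replicate a and 3 without TBX5 replicate b. B2M was not called without TBX5 replicate a (0.18, adjusted p = 0.144), TAP1 was lost without any 1 of the TBX5 libraries or TBX2 replicate a or b (adjusted p = 0.104 to 0.430), and TAP2 was lost without TBX2 replicate c or TBX5 replicate a or b (adjusted p = 0.106 to 0.139).

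Between the other groups fewer of the 9 genes differed. TBX3 was lower than TBX4 in HLA-B (-0.36 ± 0.09, adjusted p = 0.0115), HLA-C (-0.32 ± 0.10, adjusted p = 0.0608) and PSMB8 (-0.44 ± 0.15, adjusted p = 0.0702), against 9.97% of all genes. HLA-B was called with each library left out. HLA-C was not called without TBX3 replicate b or c or TBX4 replicate b (adjusted p = 0.156 to 0.241), nor was PSMB8 without TBX3 replicate a or b or TBX4 replicate a or b (adjusted p = 0.119 to 0.235). No member was called by edgeR or DESeq2 between TBX3 and TBX5 (7.41% of all genes, with 0 of the 9 and 17.6% of all genes at an unadjusted p under 0.05) or between TBX4 and TBX5 (0.539% of all genes, with 2 of the 9, HLA-B and PSMB8, and 8.10% of all genes at an unadjusted p under 0.05). For TBX4 against TBX5 the 95% interval of the difference in HLA-B was 0.01 to 0.37 and in B2M -0.15 to 0.14. Without TBX5 replicate a, B2M was called as lower with TBX3 than with TBX5 (-0.22, adjusted p = 0.0924).

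Ratios between members were also taken within libraries, where no scaling enters. The ratio of TAP1 to PSMB8 counts, 2 neighbouring genes of the MHC, was 1.81 to 2.95 in the 6 controls, 3.89 to 4.62 in the TBX2 libraries, 3.29 to 4.29 with TBX3 and 3.63 to 4.43 with TBX5, and none of these 3 groups overlapped the controls. With TBX4 it was 2.58 to 3.24, which did. Such a ratio combines the changes of its 2 genes given above, and is not separate support for them. The share of gene pairs that separate from the controls in this way was not counted. TAP1 over TAP2 was 0.574 to 0.795 in the controls and 0.667 to 1.03 with TBX2, and TAP1 over PSMB9 was 2.83 to 7.64 and 4.97 to 7.43, and both overlapped. The ratio of PSMB8 to PSMB5 counts, the immune subunit to the standard subunit whose place it takes, was 0.165 ± 0.0209 (SD, n = 6) in the controls and 0.134 ± 0.0125 (SD, n = 3) with TBX3, ranges that overlapped.

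**Figure D4:**
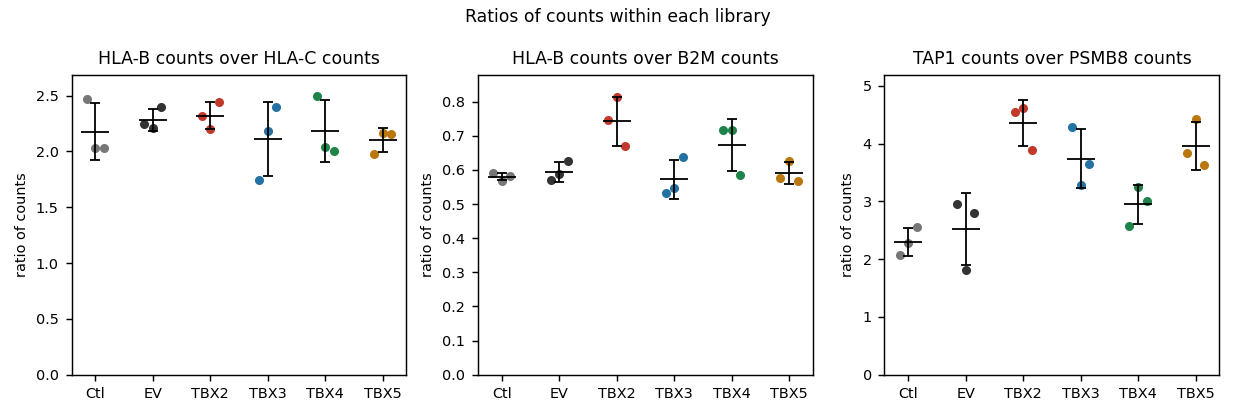
Ratio of the counts of 2 genes within each library (points), with mean and SD (bars) per group, for HLA-B over HLA-C, HLA-B over B2M and TAP1 over PSMB8. TAP1 over PSMB8 is above the controls, which end at 2.95, in all TBX2, TBX3 and TBX5 libraries, and HLA-B over HLA-C shows no such separation.

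Other genes of the route were counted from lists, to be read against the shares of all genes at the same threshold: 17.0% higher and 15.6% lower with TBX2, 8.47% and 6.40% with TBX3, 6.97% and 6.07% with TBX4, and 6.55% and 6.12% with TBX5. On library totals none of the calls made in these lists with TBX3 or TBX5 remained, where 0.225% and 0.597% of all genes were called. Some of them, but not all, were called when ENSG00000266658 was left out of the totals. Of 10 genes of peptide loading and trimming, all tested, 5 rose with TBX2 and none fell, and 3 of the 5 were still called on library totals (HSPA5, TAPBPL and ERAP2). HSPA5 (BiP), an endoplasmic reticulum chaperone, rose by 1.00 ± 0.13 (log2 fold change ± SE), TAPBPL, a tapasin-related peptide editor, by 0.96 ± 0.24, and ERAP2, an aminopeptidase that trims peptides, by 0.92 ± 0.14. With TBX3, 2 of the 10 rose, TAPBPL (0.61 ± 0.21) and HSPA5 (0.27 ± 0.09). With TBX4, 2 rose, SEC61G (0.31 ± 0.10), a part of the translocation channel, and the chaperone CALR (0.23 ± 0.07). With TBX5, 2 rose on TMM scaling, HSPA5 (0.33 ± 0.10) and the thiol oxidoreductase PDIA3 (0.29 ± 0.06), and PDIA3 became -0.02 with library totals. The median log2 fold change of the list was 0.17 (TBX2), 0.02 (TBX3), 0.14 (TBX4) and 0.12 (TBX5).

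Of 9 proteasome partners, all tested, 1 rose and 1 fell with TBX2, 1 fell with TBX3 and 1 rose with TBX4, and of these the TBX4 call remained on library totals. With TBX2, PSME2, a subunit of the PA28 activator, rose by 0.19 ± 0.08 and PSMB5, a standard catalytic subunit, fell by 0.18 ± 0.07. With TBX3, PSMB5 fell by 0.26 ± 0.07, and with TBX4 the standard subunit PSMB6 rose by 0.26 ± 0.07. PSMB10, the other immune subunit, named here after its values were seen, did not pass in any of the 4 comparisons, with a log2 fold change of 0.35 with TBX2 (adjusted p = 0.450). None of the 9 was called by edgeR with TBX5, where PSMB5 (adjusted p = 0.1498) was the only one at an unadjusted p under 0.05.

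Of 13 other class I and class I-like genes, 10 were tested, and HLA-G, RAET1G and CD1D did not pass the filter. HLA-E, a class I molecule with a restricted peptide repertoire that is read by NK cell receptors, rose with all 4 plasmids against the 6 controls: by 0.84 ± 0.09 (TBX2), 0.36 ± 0.09 (TBX3), 0.59 ± 0.09 (TBX4) and 0.75 ± 0.11 (TBX5). On library totals HLA-E was still called with TBX2 and TBX4, while with TBX3 it had 0.27 (adjusted p = 0.999) and with TBX5 0.39 (adjusted p = 0.332). When ENSG00000266658 was left out of the totals, HLA-E was called with TBX3 (0.30, adjusted p = 0.0361) and TBX5 (0.71, adjusted p = 7.49e-05). HLA-E was named after its values were seen, as the one gene of this list called in all 4. It also rose in EV against Ctl (0.35 ± 0.08, adjusted p = 0.0509), so the size against the pooled controls includes a difference between them. Against EV alone, HLA-E rose with TBX2 (0.68 ± 0.08), TBX4 (0.43 ± 0.07) and TBX5 (0.58 ± 0.10), and with TBX3 it had 0.19 ± 0.07 (adjusted p = 0.1003). With TBX2, 5 of the 10 rose, among them ULBP1 (1.85 ± 0.19) and HLA-F (1.23 ± 0.24), and ULBP2 (1.01 ± 0.25), where ULBP1 and ULBP2 are ligands of the activating receptor NKG2D. With TBX4, 3 rose, MR1 (0.97 ± 0.19), which presents vitamin B metabolites to MAIT cells, ULBP2 (0.94 ± 0.22) and HLA-E. With TBX5, 2 rose, ULBP2 (0.82 ± 0.30) and HLA-E, and with TBX3 HLA-E alone.

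The regulators list held 18 genes, 17 of them tested, and CIITA, the class II transactivator, did not pass the filter. With TBX2, 6 rose and 1 fell, and 2 of these 7 calls remained on library totals (IRF9 and IRF1). IRF9, the DNA-binding subunit of the interferon-induced complex ISGF3, rose by 2.96 ± 0.27, from 0.191 to 0.914 CPM in the controls to 4.36 to 5.94 CPM. The lowest of these control levels was near the floor of detection, taken as 3 counts, so the size of the IRF9 change is less certain. IRF1, an activator of class I promoters, rose by 0.64 ± 0.11, and STAT2, another subunit of ISGF3, by 0.49 ± 0.09. Exons of other genes covered 23.9% of the exon bases of IRF9, 22.9% of IRF1 and 28.0% of HLA-F, where reads would be missing from the counts. RFXANK, a subunit of the RFX complex that binds class I and class II promoters, fell by 0.36 ± 0.14 with TBX2, where it is named as the one that fell, and by 0.36 ± 0.11 with TBX3. With TBX3, 3 rose, among them the acetyltransferase EP300 (0.40 ± 0.07) and NFYA (0.30 ± 0.09), a subunit of the factor that binds the CCAAT box. With TBX4, none rose and, in calls that were lost on library totals, IRF2 (-0.49 ± 0.15) and ATF1 (-0.28 ± 0.09) fell, and with TBX5, NFYA (0.34 ± 0.11) and STAT2 (0.34 ± 0.08) rose and ATF1 (-0.32 ± 0.10) fell.

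Class II genes, which serve the presentation of outside antigens, were near the floor. Of 9 listed, 8 did not pass the filter, and the summed list had 8 to 34 counts per library. The one tested, HLA-DMA, a peptide exchange chaperone, rose with TBX2 by 1.02 ± 0.31, from 0.392 to 1.09 CPM in the controls (4 to 16 counts per library) to 1.61 to 1.71 CPM (10 to 17 counts).

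**Figure D5:**
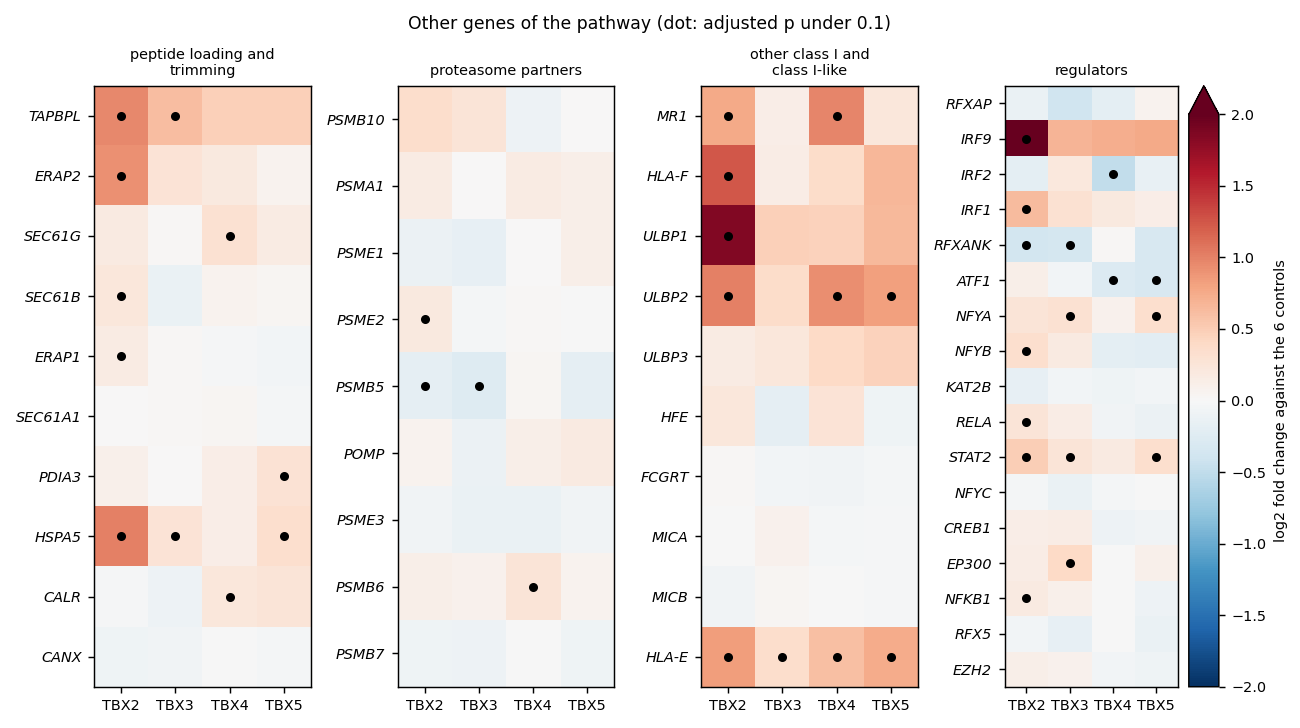
Log2 fold change against the 6 controls (colour, from blue at -2 to red at 2 and above) of the tested genes of 4 lists of the route, by TBX, with a dot where the edgeR adjusted p was under 0.1. HLA-E carries a dot with all 4, and IRF9 and ULBP1 have the deepest red, with TBX2, while PDIA3 with TBX5 is the one dotted gene whose direction turned with library totals.

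The 5 genes outside these lists whose profile was closest to the mean standardised profile of the 9 genes over the 18 libraries were RECQL5, a DNA helicase (Pearson's r = 0.94), DHRS2, a short-chain dehydrogenase (0.94), IFI6, an interferon-induced gene (0.93), DDX60L, a helicase-like gene (0.93), and TDRD7, a tudor domain protein (0.93). These r values are descriptions over libraries that share their groups, with TBX2 as the highest group. All 5 rose with TBX2 against the 6 controls, by 0.66 (RECQL5), 3.23 (DHRS2), 3.57 (IFI6), 1.94 (DDX60L) and 0.79 (TDRD7) on the log2 scale. Among the 9 members r with that mean ran from 0.91 for HLA-B, 0.88 for HLA-C and 0.85 for B2M down to 0.31 for PSMB9, 0.24 for NLRC5 and 0.06 for PSMB8. Each member is part of the mean, which raises its r, so these values are not comparable with those of the 5 genes outside.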

How the data were processed

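The authors sequenced paired-end libraries, aligned reads to GRCh37 (Ensembl 75) with STAR (2.3.0 in the submitters' processing notes) and deposited unnormalised featureCounts counts per gene, leaving out reads that matched several places. Of 63677 genes, the 15576 that exceeded 5 counts in 10 or more of the 18 libraries were tested. Each TBX group was compared with the 6 controls (EV and Ctl as 1 group) or with EV in a fit of its own, and TBX pairs in 1 fit of 18 libraries, by the quasi-likelihood test of edgeR 4.0.16 (R 4.3.3) with TMM scaling and Benjamini-Hochberg adjustment over all tested genes, called under 0.1. The SE was taken as the absolute log2 fold change divided by the root of the F statistic. DESeq2 1.42.0, other scalings, filters and left-out libraries were alternatives. Totals were 7365221 to 11743179 counts. Symbols, coordinates and exon lengths came from a later GENCODE annotation lifted to GRCh37, so levels per kb are approximate. Named genes of the other lists were the 3 with the largest absolute fold change among those called in each comparison, with exceptions stated, and the 5 closest profiles by Pearson's r. The scripts were tested on simulated data. The members and lists were chosen with earlier results of these data known. 1 gene of the regulators list is not reported here and is left out of its counts.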

Additional observations from a re-analysis of the deposited data

Results flagged for a closer look

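Among the 6 controls, the HLA-C level of 23.6 CPM in Ctl replicate a lay apart from the other 5, with a gap of 0.666 of the group's range, above Dixon's 95% critical value for a group of 6. The TAPBP level of 51.8 CPM in EV replicate c lay apart in the same way, with a gap of 0.659 of the range. Chance flags about 1 in 20 groups.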

How the results depend on the processing

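Over all comparisons, the 43 calls of members were recomputed 620 times, and 510 kept their direction and side of the threshold, 107 lost the call and 3 changed direction. The comparisons between TBX groups were not recomputed on library totals that include ENSG00000266658, nor with other gene filters. Their calls therefore did not meet the setting that removed all calls with TBX2, TBX3 and TBX4 against EV. The counts above include them. The 3 that changed direction were HLA-C (-0.058), TAP1 (-0.0056) and TAPBP (-0.10) with TBX5 against the 6 controls on library totals, where the median of all genes was -0.31. On library totals the number of members called against the 6 controls was 3 with TBX2, 5 with TBX4, 0 with TBX3 and 0 with TBX5, beside 6.78%, 17.9%, 0.225% and 0.597% of all genes. Against EV it was 0 with TBX2, TBX3 and TBX4, beside 1.83%, 0.0514% and 2.13% of all genes. Library totals without ENSG00000266658 gave 2 with TBX5 against the 6 controls, beside 12.9% of all genes. DESeq2 gave 1 there, 0 with TBX3 against EV, where the adjusted p of PSMB8 was not given, and 3 between TBX2 and TBX5. No filter gave 0 with TBX5 against the 6 controls. A threshold of 0.05 gave 0 there, 0 with TBX3 against EV and 1 between TBX3 and TBX4, beside 1239, 1134 and 943 of all 15576 genes. The shares of all genes called with DESeq2 and with no filter are not given here. Where a value does not name its cause, the cause was not tested.

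With each library left out, members called against the 6 controls numbered 6 to 6 (TBX2), 1 to 1 (TBX3), 2 to 4 (TBX4) and 1 to 3 (TBX5). Against EV they numbered, for the TBX groups taken likewise, 5 to 6, 0 to 1, 2 to 2 and 0 to 3, and EV against Ctl gave 0. They numbered 5 to 6 between TBX2 and TBX3, 3 to 6 between TBX2 and TBX4, 2 to 4 between TBX2 and TBX5, 1 to 3 between TBX3 and TBX4, 0 to 1 between TBX3 and TBX5, and 0 between TBX4 and TBX5. The share of all genes called with each library left out is not given, here or above. A call gained or lost in this way therefore cannot be read as particular to the members.

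The library letters showed no sign of pairing the samples: the same-letter correlation ranged from -0.10 to 0.16 and 6 of 18 libraries were closest to their own letter. Whether a letter marks a shared batch cannot be told from this. A replicate block on the letter gave 2 members called with TBX3 against EV, PSMB8 and TAPBP. Counts summed over alternate MHC haplotype rows were not run, since the tables used here do not pair those identifiers with genes. NLRC5, at 6 to 19 counts, is limited by depth.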
